A study of Mus musculus with 2 samples.

Results

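The Hox cluster miRNAs miR-10a, miR-10b, miR-196a, miR-196b and miR-615 were examined in microvesicles (MVs) released by mouse mesenchymal stem cells (MSCs). Members were all entries of the deposited values in which a name carried 1 of these stems with any suffix, and this rule gave 10 entries of 831. The 10 entries were 4 -5p arms and 6 -3p arms, because miR-196a has a separate -3p entry for each of its 2 hairpins and miR-615-5p is not analysed here. The MSCs were primary bone marrow cells of 4-week-old male C57BL/6 mice, used at passage 3 and grown in DMEM/F12 with fetal bovine serum and antibiotics. MVs were collected by ultracentrifugation after 48 h of culture with 100 IU/ml erythropoietin (EPO) in the medium (EPO-MVs, 1 array) or without EPO (MSC-MVs, 1 array). With 1 array per condition there was no replicate error and no test, and EPO cannot be told apart from the culture, the MV preparation or the array as a source of a difference. A lower amount of RNA per MV and fewer MVs carrying a miRNA cannot be told apart either. The paper names the serum in the medium as a limitation and holds its influence to be similar in both preparations. Any part of the signal that came from the serum cannot be told apart here.

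Hox genes encode the transcription factors that set position along the body axis, and cells keep part of their Hox code in culture, MSCs among them. The Hox clusters also hold miRNA genes, and several of these miRNAs repress Hox mRNAs, the best known case being the cleavage of Hoxb8 mRNA directed by miR-196. Each hairpin yields a -5p and a -3p strand, of which one is usually retained as the guide in Argonaute and the other, the passenger, is mostly degraded; for miR-10 and miR-196 the -5p strand is the usual guide. MVs and exosomes can carry miRNAs from cell to cell.

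All 10 entries were matched by name to mature sequences of RefSeq (build GRCm38.p6). The guide strands are shown first, 5′ to 3′, with the seed (bases 2 to 8, which pair with target mRNAs) in capitals, because the shared seed defines the 2 families.
mmu-miR-10a-5p: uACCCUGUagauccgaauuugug
mmu-miR-10b-5p: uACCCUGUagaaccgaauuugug
mmu-miR-196a-5p: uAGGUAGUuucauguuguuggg
mmu-miR-196b-5p: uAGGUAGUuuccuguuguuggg
With positions counted from 1 at the 5′ end, miR-10a-5p and miR-10b-5p differed by the single substitution U12A, and miR-196a-5p and miR-196b-5p by the single substitution A12C. Among all mouse mature miRNAs of the RefSeq table, the seed ACCCUGU was found in miR-10a-5p and miR-10b-5p alone and the seed AGGUAGU in miR-196a-5p and miR-196b-5p alone. Whether the array told apart strands that differ by 1 base was not tested, so the values within each of these pairs may share signal.

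The -3p strands are shown in the same way, because their seeds differ where those of the guides are shared.
miR-10a-3p: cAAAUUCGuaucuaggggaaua
miR-10b-3p: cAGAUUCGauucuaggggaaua
miR-196a-1-3p: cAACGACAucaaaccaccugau
miR-196a-2-3p: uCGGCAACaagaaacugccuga
miR-196b-3p: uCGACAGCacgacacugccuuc
miR-615-3p: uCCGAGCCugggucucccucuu
No other mouse mature miRNA of the table had the seed of any of these 6 strands. miR-10a-3p and miR-10b-3p differed by A3G, U9A and A10U. miR-196a-1-3p and miR-196a-2-3p had the same base at only 5 of 22 positions, whereas miR-196a-2-3p and miR-196b-3p had the same base at 16 of 22.

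The pair of miR-196a hairpins is given with the mature strands in capitals, because both release the same -5p strand and different -3p strands.
Mir196a-1: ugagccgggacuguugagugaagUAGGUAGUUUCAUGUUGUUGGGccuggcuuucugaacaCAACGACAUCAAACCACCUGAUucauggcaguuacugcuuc
Mir196a-2: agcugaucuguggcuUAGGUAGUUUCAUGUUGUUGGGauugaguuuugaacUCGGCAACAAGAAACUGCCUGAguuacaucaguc
In GRCm38.p6, Mir196a-1 lies at chr11:96265164-96265265 (plus strand), between Hoxb13 and Hoxb9, and Mir196a-2 at chr15:102973350-102973434 (plus strand), between Hoxc10 and Hoxc9. Mir196b lies at chr6:52230081-52230165 (minus strand), between Hoxa9 and Hoxa10. Mir10a, at chr11:96317165-96317274 (plus strand), lies between Hoxb5 and Hoxb4 and within the annotated span of Hoxb3. Mir10b, at chr2:74726070-74726137 (plus strand), lies within the annotated spans of Hoxd3 and Hoxd4, and Mir615 on chromosome 15 lies within that of Hoxc5. The members therefore come from all 4 Hox clusters, and miR-196a-5p is the one strand among them that can come from 2 clusters, Hoxb and Hoxc.

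The deposited values are normalized intensities of the miRCURY LNA Array on a linear scale. On each array the smallest value divided all 831 values into whole numbers, with a tolerance of 0.0001, and intensities are therefore also given in units of it, as steps. A normalized intensity of 1 was 471 steps on the EPO-MV array and 447 steps on the MSC-MV array. The arrays had medians of 97 steps (EPO-MVs) and 87 steps (MSC-MVs). How these entries were selected is not given in the sources used here. Marker miRNAs were listed for the labelled cells and for others, and since probes bind differently their intensities show signal and not amounts. The 6 stromal entries (among them miR-143-3p and miR-199a-5p) had intensities of at least 7.03 on both arrays, the 5 blood cell entries (among them miR-142-3p and miR-223-3p) ran from 0.716 to 48.9, and the epithelial miR-141-3p, miR-200b-3p and miR-200c-3p were at most 0.144. The markers differed between the arrays. All 6 stromal entries were lower in EPO-MVs, with ratios of the EPO-MV to the MSC-MV value from 0.648 to 0.873 (median 0.723), and their summed intensity was 205 in MSC-MVs and 158 in EPO-MVs. Of the blood cell entries 4 of 5 were lower (median ratio 0.902, summed intensity 79.7 and 67.2), the endothelial miR-126a-3p had a ratio of 0.589, and the 3 epithelial entries were higher, with ratios from 1.50 to 2.85 (summed intensity 0.145 and 0.251). The other entries of the miR-200 family, which that list did not hold and which were added after their values were seen, had log2 ratios of 0.77 (mmu-miR-200c-5p), 0.05 (mmu-miR-141-5p), -0.08 (mmu-miR-200a-5p) and -0.49 (mmu-miR-429-3p). Ratios also varied with intensity, as described below. All 6 stromal entries were in the brightest of 4 intensity classes, whose median ratio was 0.942. miR-141-3p and miR-200c-3p were in the dimmest class (median ratio 1.40) and miR-200b-3p in the next (1.12). These epithelial entries had 16, 6 and 43 steps in MSC-MVs and 32, 18 and 68 steps in EPO-MVs. The part of intensity in the marker differences, and the part of the marker differences in the results below, was not tested.

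**Figure D1:**
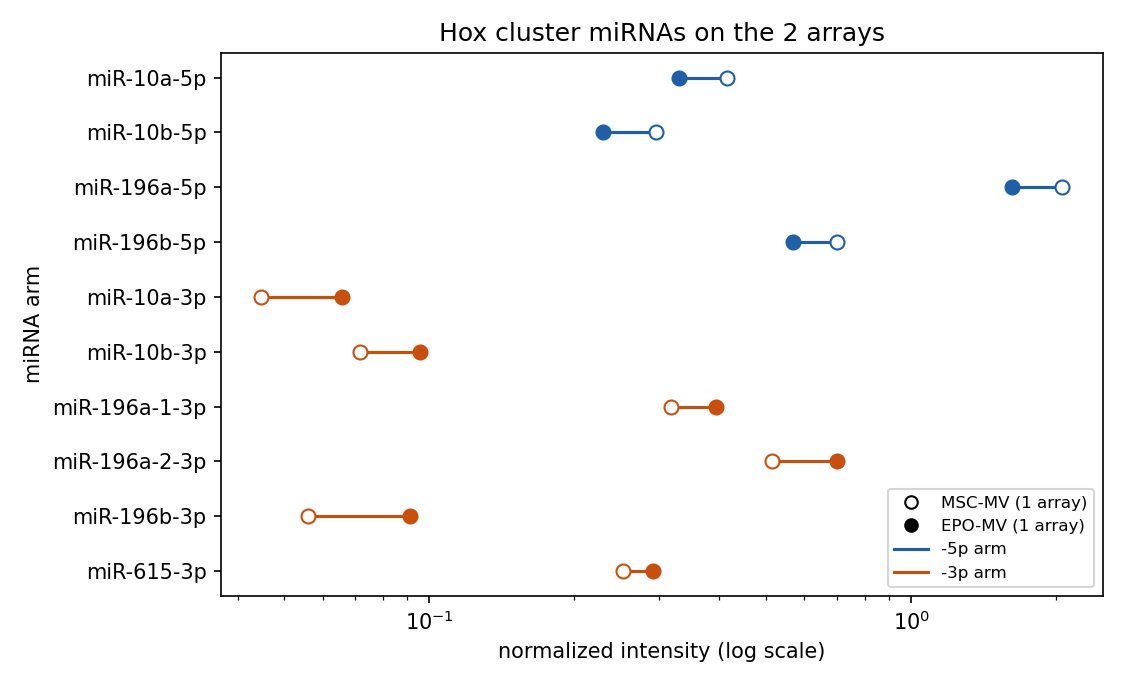
Normalized intensity (log axis) of each of the 10 Hox cluster entries on the MSC-MV array (open circle) and the EPO-MV array (filled circle), 1 array each, with -5p arms in blue and -3p arms in orange. The filled circle lies to the left of the open one in 4 of 4 -5p arms and to the right in 6 of 6 -3p arms.

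The guide strands of miR-10 were lower in EPO-MVs. mmu-miR-10a-5p, from the Hoxb cluster, had a normalized intensity of 0.414 in MSC-MVs (185 steps) and 0.329 in EPO-MVs (155 steps), and the EPO-MV value was 0.795 times the MSC-MV value; ratios below are given this way round. mmu-miR-10b-5p, from the Hoxd cluster, had 0.295 (132 steps) in MSC-MVs and 0.229 (108 steps) in EPO-MVs, a ratio of 0.776. The ratios of this pair, which share their seed and all but 1 base, were within a factor of 1.02 of each other. Both lay near the middle of their arrays, with 43.6% of entries brighter than miR-10a-5p and 47.4% brighter than miR-10b-5p in EPO-MVs.

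The guide strands of miR-196 were lower by nearly the same factor. miR-196a-5p, the brightest of the 10 entries on both arrays, had 2.06 (921 steps) in MSC-MVs and 1.62 (761 steps) in EPO-MVs, a ratio of 0.784. miR-196b-5p, from the Hoxa cluster, had 0.702 (314 steps) and 0.569 (268 steps), a ratio of 0.810. The 4 guide ratios thus ran from 0.776 to 0.810, although the intensities of these probes in MSC-MVs ran from 0.295 to 2.06. None of the 4 reached a decrease of 1.5-fold, the threshold of the study's fold change filter, which 7.58% of all 831 entries reached. A decrease of at least 1.2-fold was seen in 4 of the 4 guides and in 21.9% of all entries, and a ratio below 1 by any amount in 43.9% of all entries and 48.1% of the 349 entries of -5p arms. Counted in steps the 4 guides were lower in EPO-MVs as well, by 24 to 160 steps; whether a step is worth the same scanner intensity on both arrays is not known.

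The -3p strands of the same hairpins were higher in EPO-MVs. miR-10a-3p had 0.0447 (20 steps) in MSC-MVs and 0.0658 (31 steps) in EPO-MVs, a ratio of 1.47. miR-10b-3p had 0.0716 (32 steps) and 0.0955 (45 steps), a ratio of 1.33. These passenger strands of miR-10 were dim on both arrays and rest on differences of 11 and 13 steps. If each value is moved by 0.5 steps, the ratio of miR-10a-3p can lie anywhere from 1.41 to 1.53, which spans the threshold of 1.5; these bounds cover rounding only.

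miR-196b-3p, from the Hoxa cluster, was the single entry of the 10 past 1.5-fold. It had 0.0559 (25 steps) in MSC-MVs and 0.0913 (43 steps) in EPO-MVs, a ratio of 1.63, with rounding bounds of 1.58 to 1.69. It fell under 1.5-fold with quantile normalization (1.37), lowess (1.38) and the pseudocount (1.31). This 1 of 10 entries is below the share over all deposited entries, where 25.4% of the 831 entries passed 1.5-fold in either direction and 17.8% passed it as higher. Among the entries with at least 30 steps on both arrays the share in either direction was lower, at 10.8%, and miR-196b-3p is not one of them.

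The -3p strands of miR-196a were well above these levels and can be assigned to their hairpins. miR-196a-1-3p, released by the Hoxb hairpin alone, had 0.318 (142 steps) in MSC-MVs and 0.393 (185 steps) in EPO-MVs, a ratio of 1.24. miR-196a-2-3p, released by the Hoxc hairpin alone, had 0.515 (230 steps) and 0.703 (331 steps), a ratio of 1.37. Both hairpins of miR-196a therefore had a -3p strand that was higher in EPO-MVs, while the -5p strand they share was lower. miR-615-3p, whose gene lies within Hoxc5, had 0.253 (113 steps) and 0.291 (137 steps), a ratio of 1.15, the value nearest to 1 among the 10. The 6 -3p ratios ran from 1.15 to 1.63, and 5 of them were at least 1.2, a ratio that 33.5% of all entries reached. A ratio above 1 by any amount was seen in 56.1% of all entries and in 56.7% of the 349 entries of -3p arms.

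Over the 10 entries the median log2 ratio was 0.25, against 0.05 over all 831 entries, but this median describes neither arm. It turned negative, to -0.051 and -0.30, when only the 8 entries that reached 30 steps on both arrays, or the 7 above the median intensity, were kept. The median log2 ratio was -0.34 for the 4 -5p arms and 0.43 for the 6 -3p arms, against 0.02 for all -5p entries and 0.07 for all -3p entries. The summed intensity of the 10 entries was nearly the same share of each array, 0.224% in EPO-MVs and 0.220% in MSC-MVs. Within it the -5p arms summed to 3.47 in MSC-MVs and 2.74 in EPO-MVs, and the -3p arms to 1.26 and 1.64.

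Ratios on these arrays also varied with intensity, and the arms differ in it. The 831 entries were ordered by mean log2 intensity and divided into 4 intensity classes of nearly equal size. The median log2 ratio was 0.49 in the dimmest class, which holds miR-10a-3p, and 0.17 in the next, which holds miR-10b-3p and miR-196b-3p. It was 0.02 in the third class and -0.09 in the brightest, which holds miR-196a-5p. The ratio of miR-10a-3p, 1.47, was thus close to the median of its class, 1.40, and those of miR-10b-3p and miR-196b-3p lay below and above the upper quartile of theirs, 1.38.

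The third class holds members of both arms and allows a view at like intensity. The interquartile range of its ratios was 0.864 to 1.19. miR-10a-5p, miR-10b-5p and miR-196b-5p lay below that range, miR-196a-1-3p and miR-196a-2-3p lay above it, and miR-615-3p lay inside it. In this class the -3p and -5p members overlapped in intensity and did not overlap in ratio. These members are few, and miR-10a-5p and miR-10b-5p may share signal. The other entries of the class were not split by arm, so how often their arms separate is not known. miR-196a-5p, at 0.784, was just below the lower quartile of the brightest class, 0.794.

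**Figure D2:**
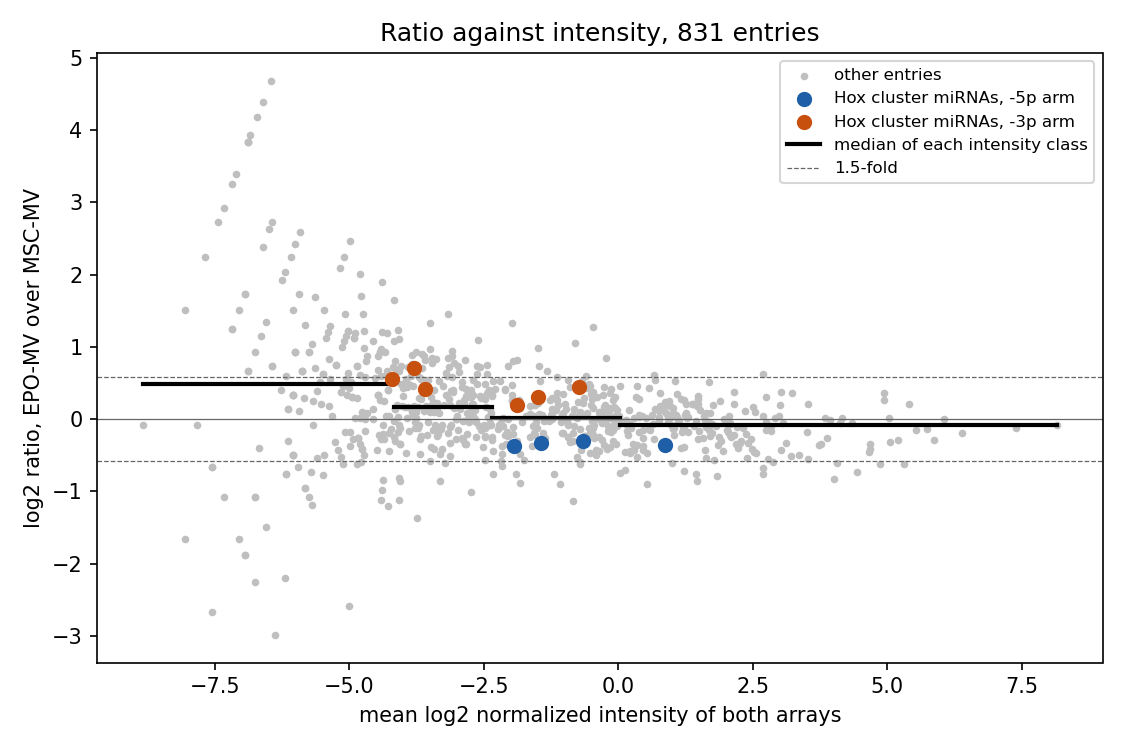
Log2 ratio of EPO-MV to MSC-MV against the mean log2 normalized intensity of both arrays for 831 entries (grey), with the -5p (blue) and -3p (orange) arms of the Hox cluster miRNAs; black bars give the median of each class of entries by intensity and dashed lines mark 1.5-fold. The 4 blue points lie between -0.36 and -0.30, and 3 of the 6 orange points lie above 0 in the same range of intensity.

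Comparing the arms of 1 hairpin removes any scaling that is common to the whole array. This comparison was chosen after the values were seen. For miR-10a the -5p signal was 5.00 times the -3p signal in EPO-MVs and 9.25 times in MSC-MVs, so that the change of the -3p strand was 1.85 times that of the -5p strand. For miR-10b the -5p signal was 2.40 times the -3p signal in EPO-MVs and 4.13 times in MSC-MVs, a relative shift of 1.72-fold. The absolute size of these quotients depends on how well each probe binds, and only their change between arrays can be read.

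The miR-196 hairpins shifted the same way. The relative shift was 1.58-fold for miR-196a-1, 1.74-fold for miR-196a-2 and 2.02-fold for miR-196b. The miR-196a values share the -5p entry and are not independent of each other. The -5p entries of miR-10a and miR-10b, and those of miR-196a and miR-196b, may share signal, so the 5 shifts may not be separate observations. In miR-196b the -5p signal went from 12.6 times the -3p signal in MSC-MVs to 6.23 times in EPO-MVs. All 5 shifts passed 1.5-fold in favour of the -3p strand, as did 22.7% of the 273 arm pairs among the deposited entries. With quantile normalization and with lowess 4 of the 5 passed, and with the pseudocount 3 did. A -3p ratio above 1 together with a -5p ratio below 1 was found in 5 of the 5 Hox cluster pairs and in 26.4% of the 273 pairs.

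The other 268 pairs shifted in both directions, with a median of 1.03-fold. Among them 21.3% passed 1.5-fold in favour of the -3p strand and 14.2% in favour of the -5p strand. In 136 of them the -5p arm was the brighter one, as it is in all 5 Hox cluster pairs, and there the median shift was 1.15-fold and 29.4% passed 1.5-fold in favour of the -3p strand. Among all other pairs the dimmer arm had the higher ratio in 61.9%. With at least 30 steps in both arms on both arrays, miR-10b, miR-196a-1 and miR-196a-2 were left, with the shifts given above, and 10.2% of the 137 other pairs passed 1.5-fold in favour of the -3p strand. The part of intensity in these shifts was not tested beyond these values.

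**Figure D3:**
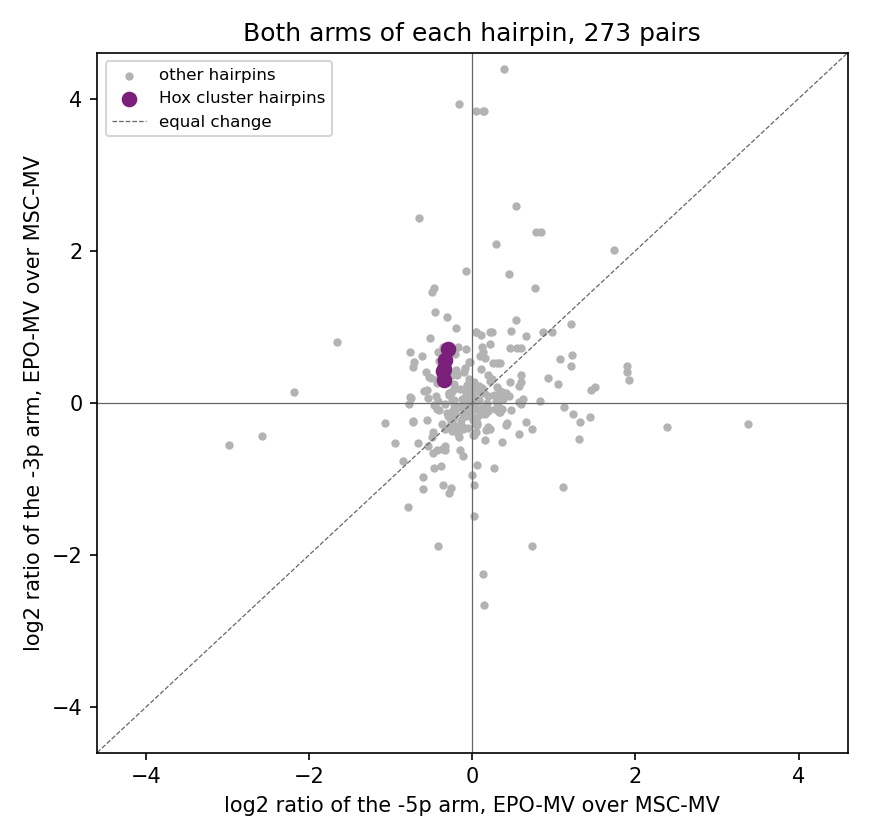
Log2 ratio of EPO-MV to MSC-MV of the -3p arm against that of the -5p arm for 273 pairs of arms, with the 5 Hox cluster pairs in purple, the other 268 in grey and a dashed line where both arms change equally. The purple points lie together in the upper left, with -5p values from -0.36 to -0.30 and -3p values from 0.31 to 0.71.

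The miR-99/100 family resembles miR-10 in sequence beyond the seed and was set beside it. Its strands are shown with their seed in capitals.
miR-100-5p: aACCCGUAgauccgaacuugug
miR-99a-5p: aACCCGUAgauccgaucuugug
miR-99b-5p: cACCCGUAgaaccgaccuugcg
miR-10a-5p was 3 edits (substitutions, insertions or deletions) from miR-100-5p and 4 from miR-99a-5p, and the seeds differ. miR-100-5p had 1.33 in MSC-MVs and 0.796 in EPO-MVs, a ratio of 0.599. miR-99a-5p had 1.53 and 1.06, a ratio of 0.693, and miR-99b-5p had 2.12 and 1.94, a ratio of 0.914. All 3 were below 1, as were the miR-10 guides, and 1 of the 5 entries of this family, miR-100-5p, passed 1.5-fold as lower, as 7.58% of all entries did. Its 2 -3p entries had ratios of 1.04 and 1.27.

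Most guides of the let-7 family, though not let-7e-5p, hold the letters of the miR-196 seed 1 base further in, at bases 3 to 9, as capitals mark here for 2 of them; miR-1961, outside the family, does too.
let-7a-5p: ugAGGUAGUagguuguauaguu
let-7g-5p: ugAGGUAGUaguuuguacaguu
Of the 17 let-7 and miR-98 entries, 4 passed 1.5-fold as lower and 0 as higher, against 7.58% and 17.8% of all entries. The 9 -5p entries had a median ratio of 0.756, with a range of 0.578 to 0.854. The 4 Hox cluster guides lay inside this range. The 8 -3p entries of let-7 and miR-98 had a median ratio of 0.861 and 3 of them were above 1, whereas all 6 Hox cluster -3p entries were; this difference was not tested. The motif GGAG, searched because it is known from miRNAs sorted into exosomes, was in 0 of the 10 members as written 5′ to 3′ and in 14.2% of the 1679 mouse mature sequences. This says only that these letters are not in the member sequences.

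For each guide the entries nearest in log2 value over both arrays were listed, as a description over 2 arrays. For miR-10a-5p the nearest was miR-194-5p, with 0.423 in MSC-MVs and 0.338 in EPO-MVs (log2 distance 0.05). For miR-10b-5p it was miR-1231-3p, which had the same values on both arrays (log2 distance 0). For miR-196a-5p it was miR-152-3p, with 2.09 and 1.62 (log2 distance 0.02), and for miR-196b-5p it was miR-335-5p, with 0.705 and 0.580 (log2 distance 0.03). Because these distances set intensities of different probes side by side, they say nothing of amounts.

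The separation of the arms was followed across scalings and filters. The 4 guide ratios stayed below 1 and the -3p ratios above 1 under every scaling and under lowess. A filter on dim entries leaves the ratio of each kept entry unchanged. A pseudocount added to both arrays cannot carry a ratio across 1. The sides of 1 were therefore fixed in advance in those settings, and they say nothing on whether the separation is stable. The guides ran from 0.741 under lowess, a smooth curve of ratio on intensity that was subtracted, to 0.840 after scaling to the 75th percentile, and none passed 1.5-fold. The -3p ratios ran from 1.10, for miR-615-3p under lowess, to 1.69, for miR-196b-3p after scaling to the 75th percentile. Under lowess and quantile normalization miR-196a-2-3p was at 1.36 and 1.39, near its deposited ratio of 1.37.

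**Figure D4:**
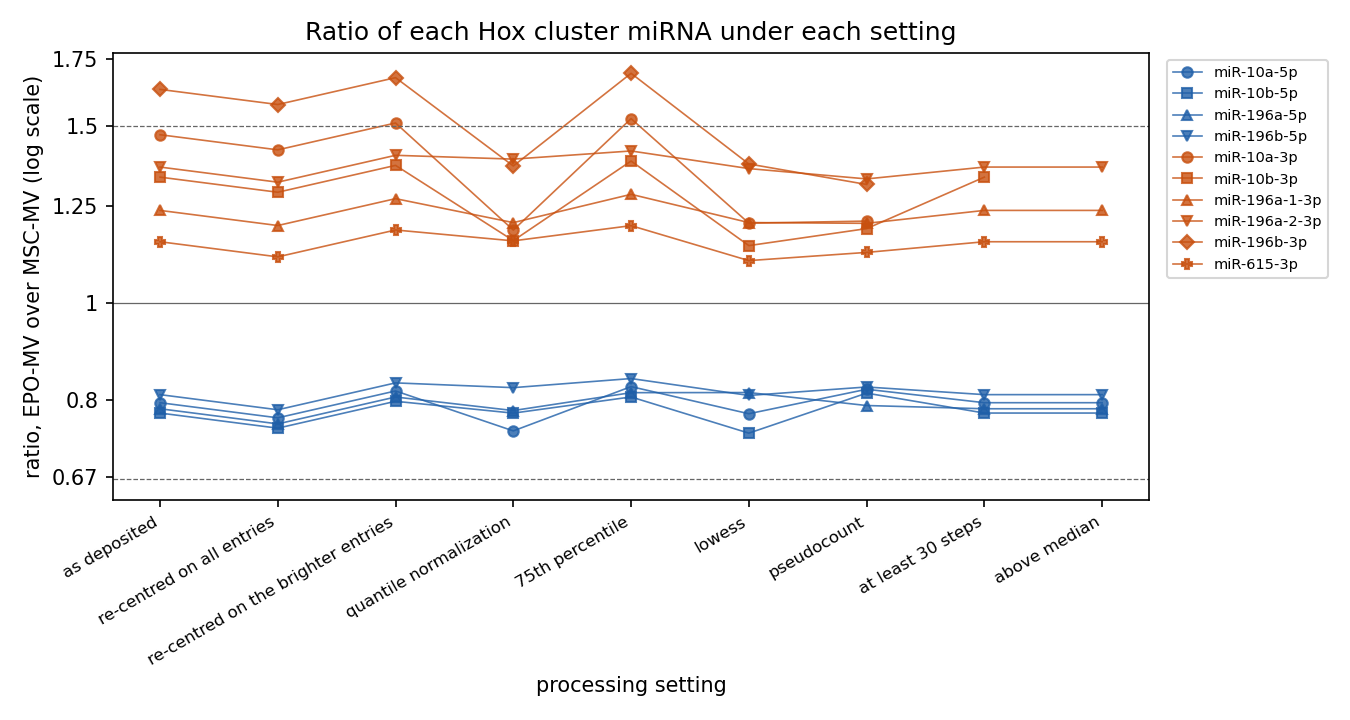
Ratio of EPO-MV to MSC-MV (log axis) of each of the 10 Hox cluster entries with the deposited values and under 8 other settings, with -5p arms in blue, -3p arms in orange and dashed lines at 1.5-fold; lines join the same entry, and entries removed by a filter have no point. The blue points stay between 0.741 and 0.840 and the orange points between 1.10 and 1.69.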

How the data were processed

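RNA of EPO-MVs and MSC-MVs was measured on the miRCURY LNA Array, with 1 column of values for each, called 1 array here; whether a column stands for a single hybridization is not given in the sources used here. According to the methods and labels, the authors scanned the arrays with an Axon GenePix scanner, averaged the spots of each miRNA and deposited median-normalized intensities on a linear scale, with the factor taken from miRNAs that reached 30 on every array. The channel and any background correction are not given in the sources used here. With 1 array per condition the precision of the ratios cannot be estimated.

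Each entry's EPO-MV intensity was divided by its MSC-MV intensity with no pseudocount and no filter, and 1.5-fold was the threshold, as in the study's fold change filter. Members and lists were chosen with earlier results of these data known. All entries of the named stems, the related miR-99/100 and let-7/miR-98 lists, marker miRNAs and, for each -5p member, the 3 nearest entries (the first is printed) were described. Another 10 settings were computed, namely thresholds of 2 and 1.2, 4 other scalings, lowess (span 0.4, 3 iterations), a pseudocount at the 25th percentile (0.0573) and 2 filters on dim entries. The counting was tested on simulated arrays. Sequences and gene positions came from RefSeq (GRCm38.p6). Python 3.11.15, pandas 2.3.3, numpy 2.4.6, statsmodels 0.14.6 and matplotlib 3.10.9 were used.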

Additional observations from a re-analysis of the deposited data

How the results depend on the processing

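No paired analysis was possible because there was 1 array of EPO-MVs and 1 of MSC-MVs. With the deposited values 1 of the 10 Hox cluster entries passed the threshold of 1.5-fold. The number was 9 at a threshold of 1.2 (5 higher and 4 lower, with 55.4% of all entries passing) and 0 at a threshold of 2 (10.6% of all entries). It was 2 after centring on the brighter entries and after scaling to the 75th percentile, where miR-10a-3p reached 1.51 and 1.53 and where 25.6% and 25.9% of all entries passed. It was 0 with quantile normalization (22.9% of all entries), lowess (22.6%), the pseudocount (6.5%), at least 30 steps on both arrays (10.8%) and above the median intensity (9.16%). The median log2 ratio of the entries, 0.25, turned to -0.051 in the 8 entries with at least 30 steps on both arrays and to -0.30 in the 7 above the median intensity, and these filters removed only -3p arms. Re-centring on all entries, which shifts log2 ratios by 0.05, left the number at 1 and the median log2 ratio at 0.20. The change of the -3p arm relative to the -5p arm, whose settings were added after the values were seen, was at least 1.46-fold in every hairpin that a setting kept. It fell under 1.5-fold for miR-10b with quantile normalization (1.49), for miR-196a-1 with lowess (1.48) and for miR-10a and miR-10b with the pseudocount (1.47 and 1.46), settings in which 18.7%, 19.4% and 9.52% of all pairs passed. The cause of the other dependences was not tested. The deposited values hold no background signal, so whether a dim -3p entry lies above background was not tested.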
